A study of Homo sapiens with 8 samples.

Results

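The genes described here encode voltage-gated ion channels, their close relatives and their auxiliary subunits. They were chosen by name, as protein-coding genes whose GENCODE symbol begins with KCN, CACN or SCN followed by a family letter or number, with the epithelial SCNN genes and SCNM left out. The annotation held 136 such genes, and 133 of them had a listed transcript of 300 nt or more, out of 36935 genes and 19055 protein-coding genes listed in that way. KCNJ6, KCNJ18 and KCNE1B had no such transcript matched and were not analysed here. The name covers more than voltage-gated pores, because the KCNJ inward rectifiers, the KCNK two-pore channels and the KCNN calcium-activated channels open without a voltage sensor of the classical kind, and the CACNA2D, CACNB, CACNG, KCNAB, KCNIP, KCNE and KCNMB genes encode subunits that form no pore.

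Expression was measured by sequencing of total RNA from HEK293, an established line derived from human embryonic kidney. Knockdown was represented by cells that received AUF1 siRNA, with Control siRNA as its counterpart. Overexpression was represented by Flag-AUF1 p37, by p40, by p42, by p45 and by all of them at once, with Empty Vector as the counterpart. Each of these 8 groups had 1 library. AUF1 is made from HNRNPD and binds AU-rich stretches of mRNA. The promoter of the vector, the dose and the time after transfection are not given in the sources used here. All values are FPKM, that is, fragments normalised to transcript length and to library size, summed over the transcripts of a gene and scaled between libraries. Since no group had a second library, every difference compares 2 libraries and no replicate stands behind it. No p-values are given.

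Ion channels set the membrane potential and let sodium, calcium or potassium pass when they open. Voltage-gated pores sense the membrane potential and produce action potentials in neurons and muscle, inward rectifiers and two-pore channels hold the resting potential, and auxiliary subunits control how many channels reach the membrane and how fast they open and close. HEK293 cells have small currents of their own and are for that reason widely used to express cloned channels.

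HNRNPD was at 293.7 FPKM in the control siRNA library and 165.6 FPKM in the AUF1 siRNA library, and at 310.5 FPKM with the empty vector against 2986 to 4839 FPKM in the 5 overexpression libraries. Coverage per FPKM, a measure of relative depth, ran from 0.213 to 0.345 and was 0.246 in the control siRNA library and 0.322 in the AUF1 siRNA library. The number of reads is unknown. Of 7 genes that mark HEK293, 6 were matched and summed to between 238.8 and 283.0 FPKM, with VIM at 168.4 to 206.4 FPKM. All 5 genes of differentiated kidney were matched and summed to 0.697 to 5.69 FPKM, with the tubule gene UMOD at 0 to 0.359 FPKM. SLC34A1, a phosphate transporter of the proximal tubule, was at 0.241 to 3.98 FPKM, and the other 4 were below 1 FPKM in every library. Neuronal markers summed to 77.9 to 98.3 FPKM, of which SYT1 made up 63.2 to 74.2 FPKM. In bulk RNA, fewer cells of a type and less RNA per cell cannot be told apart.

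Sequences from the 3′ untranslated regions are shown first because AUF1 binds AU-rich elements there. The letters TATTTAT, the DNA form of a common AU-rich core, were searched on the sense strand of the longest annotated 3′ untranslated region of each gene, from GENCODE release 29. They occurred in 53 of the 131 channel genes with such a region, or 40.5%, and in 31.4% of 18593 protein-coding genes. The regions of the channel genes were also longer, with a median of 2217 nt against 1120 nt. Per kb of region, the letters were less frequent in the channel genes, at 0.288 against 0.319 in protein-coding genes. Below is the first match in each of 6 channel genes that differed 2-fold between the AUF1 siRNA and the control siRNA library. TATTTAT is in capitals and the flanks are in lower case, 5′ to 3′.
KCNQ5: tttttgcaaggTATTTATtttttaatatg
KCNMA1: taaattattttTATTTATtagaaagaaaa
KCNK1: gttaaacttacTATTTATaatgcataggt
KCNJ12: tccttccctcgTATTTATttatttattta
KCNAB2: cacagccaccgTATTTATggaatgacaaa
KCNMB4: cttgaacacacTATTTATgacatcttttg
The KCNJ12 match runs on into further copies of the same letters, and KCNJ12 held 4 matches, overlaps counted. KCNAB2 held 1 match in a region that was 37.8% A and T, the lowest share of the 6, and KCNK1 held 1 match in a region that was 68.5% A and T. A match is a description of the sequence and not a measured binding site.

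Most of these channel genes were at low levels, but few were at 0. A mean of 1 FPKM or more over the 8 libraries was found for 79 of the 133 genes, or 59.4%, against 68.2% of protein-coding genes. At 5 FPKM or more the counts were 28 of 133, or 21.1%, against 44.2% of protein-coding genes. Below 1 FPKM in all 8 libraries were 36 genes, and CACNG4, KCNA6, KCNE5, KCNJ13 and KCNV1 were listed at 0 in all of them. At the 1 FPKM line, KCNK5 and KCNC4 lay just above, at means of 1.12 and 1.04 FPKM, and KCNMB1 and SCN7A just below, at 0.937 and 0.933 FPKM. Most of the 133 were therefore low rather than silent.

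These sums depend strongly on short transcripts. Cufflinks, the program that made the values, gives each transcript its own FPKM, and a short transcript needs few fragments to reach a high value. When each FPKM was weighted by transcript length relative to the longest listed transcript of its gene, 62 channel genes had a mean of 1 FPKM or more and 12 had 5 FPKM or more. With coding transcripts alone, 58 genes reached a mean of 1 FPKM. Coding transcripts carried 59.6% of the summed mean FPKM of the channel genes.

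Auxiliary subunits of calcium channels were the most abundant group and held 35.6% of the summed mean FPKM of all channel genes. Of 16 such genes, 13 had a mean of 1 FPKM or more and 9 had 5 FPKM or more. CACNA2D3 (ENSG00000157445, hg19 chromosome 3, 54156574 to 55108584) was the highest channel gene by the plain and by the length-weighted sum, at means of 110.1 and 31.2 FPKM. Its product is an alpha-2-delta subunit, an extracellular protein that brings calcium channels to the cell surface. It ranged from 95.6 FPKM with the control siRNA to 124.8 FPKM with all isoforms, so the 8 libraries lay close together. A coding transcript of 559 nt, ENST00000492460, gave 71.4% of the sum. CACNA2D1, which encodes another alpha-2-delta subunit and a target of gabapentin, had a mean of 64.9 FPKM, of which 80.1% came from a noncoding processed transcript of 532 nt. Its length-weighted mean was 10.4 FPKM.

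The beta subunits bind the calcium channel pore from inside the cell. CACNB2 ranged from 28.6 to 38.2 FPKM and CACNB4 from 22.4 to 34.0 FPKM, and both were carried almost wholly by 1 coding transcript, with 96.6% and 93.7% of the sum. CACNG2 and CACNG7 belong to a family that also traffics AMPA-type glutamate receptors. CACNG2, the gene of stargazin, had a mean of 7.88 FPKM from a full coding transcript, and CACNG7 had 6.60 FPKM, of which 95.1% came from a noncoding transcript of 448 nt.

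Potassium channel auxiliary subunits came next, with 26.0% of the summed mean FPKM and 12 of 16 genes at 1 FPKM or more. By the length-weighted sum they held 16.9%, below the 27.1% of the voltage-gated potassium pores. KCNAB2 encodes a cytoplasmic beta subunit of Shaker-type channels with an oxidoreductase fold, and its mean of 95.5 FPKM was the second highest. All of it came from ENST00000478098, a retained-intron transcript of 413 nt whose deposited status was LOWDATA in all 8 libraries, and its coding transcripts were listed at 0. KCNAB2 (ENSG00000069424, hg19 chromosome 1, 6051526 to 6161253) also overlaps NPHP4 on the opposite strand. Strand is not stated for these libraries, so reads of such pairs cannot be told apart, and 18 of the 28 channel genes checked for overlaps had an antisense partner.

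Other potassium auxiliary subunits were lower. KCNIP1, KCNIP2 and KCNIP4 encode calcium-binding partners of A-type potassium channels, and their means were 20.4, 11.9 and 12.6 FPKM. KCNMB4 and KCNMB2, whose products tune the large-conductance calcium-activated channel, had means of 15.2 and 11.6 FPKM. KCNAB1 had 14.6 FPKM, 100% of it in coding transcripts. Among these genes, KCNIP4 drew 87.3% and KCNMB4 85.6% of the sum from an annotated target of nonsense-mediated decay.

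Pores of voltage-gated potassium channels numbered 40, and 22 of them had a mean of 1 FPKM or more. KCNQ5, a pore of the M-current that damps neuronal firing, was the highest, at a mean of 61.3 FPKM. KCNQ1, the pore of the slow delayed rectifier of heart and inner ear, had 16.5 FPKM from a single coding transcript of 2159 nt and ranked 3 by the length-weighted sum, at 11.4 FPKM. It ranged from 11.0 to 19.4 FPKM, and the control siRNA library was the lowest. KCNQ1 contains the antisense gene KCNQ1OT1. KCNS3, a modifier subunit that forms no channel alone, had 11.5 FPKM. None of the 8 KCNA genes of Shaker type reached a mean of 1 FPKM.

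Calcium- or sodium-activated potassium channels were led by KCNMA1, the pore of the large-conductance channel, with a mean of 20.2 FPKM. A transcript of 618 nt that is no longer in the annotation gave 82.0% of it, and the length-weighted mean was 3.51 FPKM. Two-pore channels, which let potassium leak at rest, were led by KCNK1 at 14.8 FPKM, and 7 of 15 had a mean of 1 FPKM or more. Of 14 inward rectifiers, 8 passed 1 FPKM and none passed 5 FPKM. KCNJ12, the highest of them at 4.95 FPKM, is nearly identical in sequence to KCNJ18, so its reads may be shared.

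Calcium channel pores were widely present at low levels. Of 10, 9 had a mean of 1 FPKM or more, and CACNA1C, the L-type pore of heart and smooth muscle, led them at 19.3 FPKM. Sodium channels were the lowest group. Of 10 sodium pores 2 had a mean of 1 FPKM or more, and SCN9A, a sodium channel of pain-sensing neurons, was at 2.95 FPKM. Of 4 beta subunits only SCN4B passed 1 FPKM, at 4.07 FPKM.

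**Figure D1:**
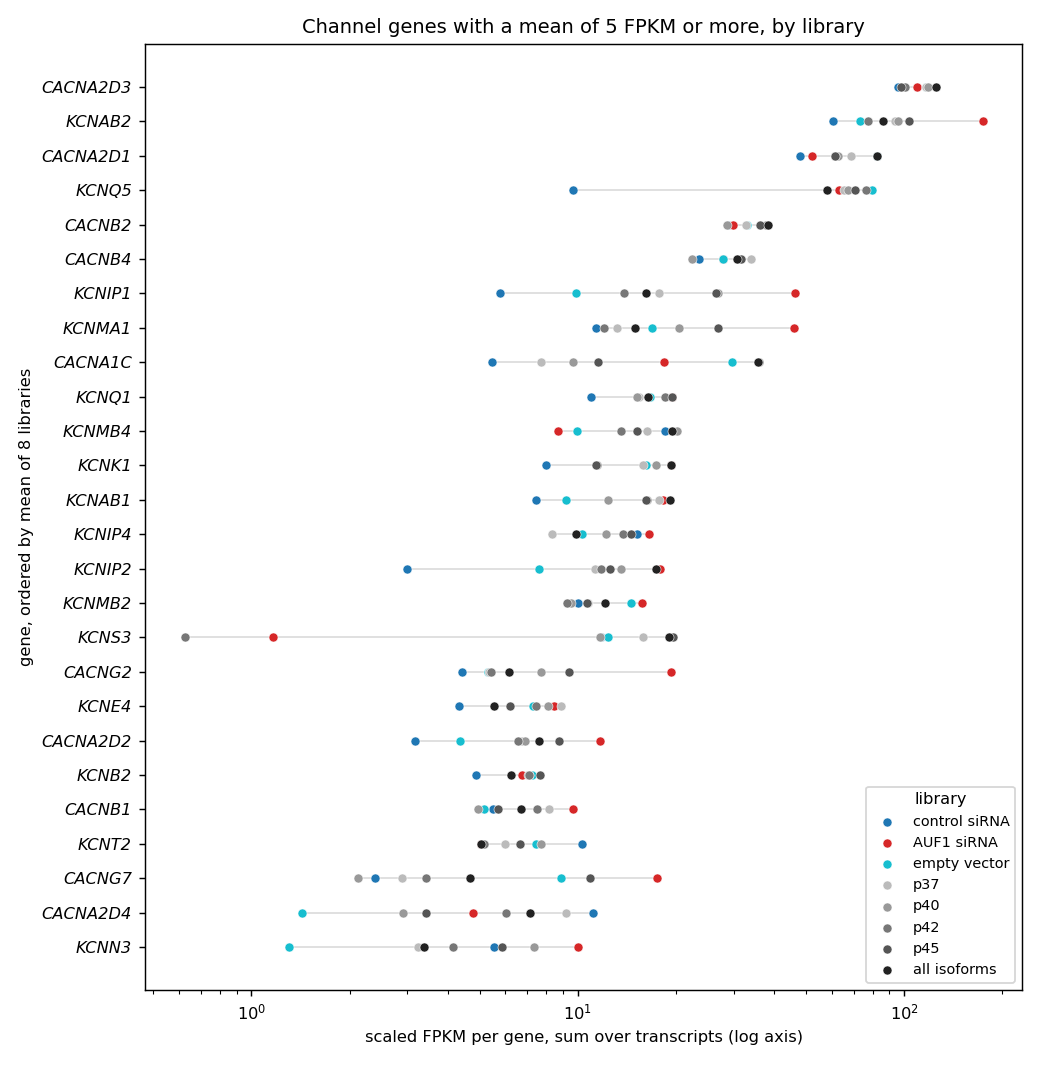
Scaled FPKM of 26 channel genes averaging 5 FPKM or more, ordered by mean, with 1 point per library and a grey line from the lowest to the highest value on a log axis. CACNA2D3 stayed between 95.6 and 124.8 FPKM, while KCNQ5 and KCNS3 had 1 or 2 libraries far below the rest.

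The spread between libraries was narrow for CACNA2D3, CACNB2 and CACNB4 and wide for a few other genes. KCNS3, KCNQ5, KCNIP1, CACNG7 and CACNA1C were among the genes of widest range at a mean of 5 FPKM or more, with 3.66, 2.92, 2.80, 2.57 and 2.51 on the log2(FPKM + 1) scale. For KCNS3 and KCNQ5, a single transcript held most of the value in some libraries and was listed at 0 in others.

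KCNQ5 (ENSG00000185760, hg19 chromosome 6, 73331520 to 73908574) was at 9.64 FPKM in the control siRNA library, 63.0 in AUF1 siRNA, 79.6 in the empty vector and 58.2 to 76.5 FPKM in the 5 overexpression libraries. The control siRNA library alone was low. There, all of the value was assigned to ENST00000414165, a coding transcript of 2469 nt, and ENST00000370392, a coding transcript of 1469 nt, was listed at 0. In the other 7 libraries ENST00000370392 was at 55.9 to 79.6 FPKM, with the status LOWDATA in all 8 tables.

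CACNA1C (ENSG00000151067, hg19 chromosome 12, 2079952 to 2807115) was at 5.48 FPKM in the control siRNA library, 18.3 in AUF1 siRNA and 29.7 FPKM in the empty vector. It was at 7.72 FPKM in p37, 9.64 in p40, 35.9 in p42, 11.5 in p45 and 35.7 FPKM in the all-isoform library. The high libraries were the empty vector, p42 and all isoforms. In those, a coding transcript of 577 nt, ENST00000543114, was at 23.6, 28.96 and 28.4 FPKM, and it was listed at 0 in the other 5. The gene also overlaps DCP1B and several antisense genes.

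KCNS3 was at 1.17 FPKM with the AUF1 siRNA, 0.624 FPKM with p42 and 11.7 to 19.6 FPKM in the other 6. ENST00000465292, a noncoding transcript of 585 nt, gave 93.4% of its summed value and was listed at 0 in the 2 low libraries.

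More channel genes were measurable in the AUF1 siRNA library than in any other of the 8. Of 133 channel genes, 88 or 66.2% were at 1 FPKM or more there, against 65 or 48.9% with the control siRNA, 70 with the empty vector and 68 to 86 in the 5 overexpression libraries. Among all protein-coding genes the shares were 68.9% with the AUF1 siRNA, 62.2% with the control siRNA and 62.9% with the empty vector. Among the overexpression libraries p45 had 66.3%, p40 had 65.3%, all isoforms 64.2%, p42 had 63.9% and p37 had 63.5%. The p45 library, with 86, came close to the AUF1 siRNA library at a lower relative depth of 0.215. The median channel gene stood at 2.09 FPKM in the AUF1 siRNA library, 0.963 FPKM in its control and 1.04 to 1.62 FPKM in the other 6 libraries. Of the 79 genes averaging 1 FPKM or more, 44 or 55.7% had their highest value in the AUF1 siRNA library, against 20.6% of protein-coding genes of that level. The control siRNA library held the lowest value of 37 of them, against 20.1% of such protein-coding genes.

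**Figure D2:**
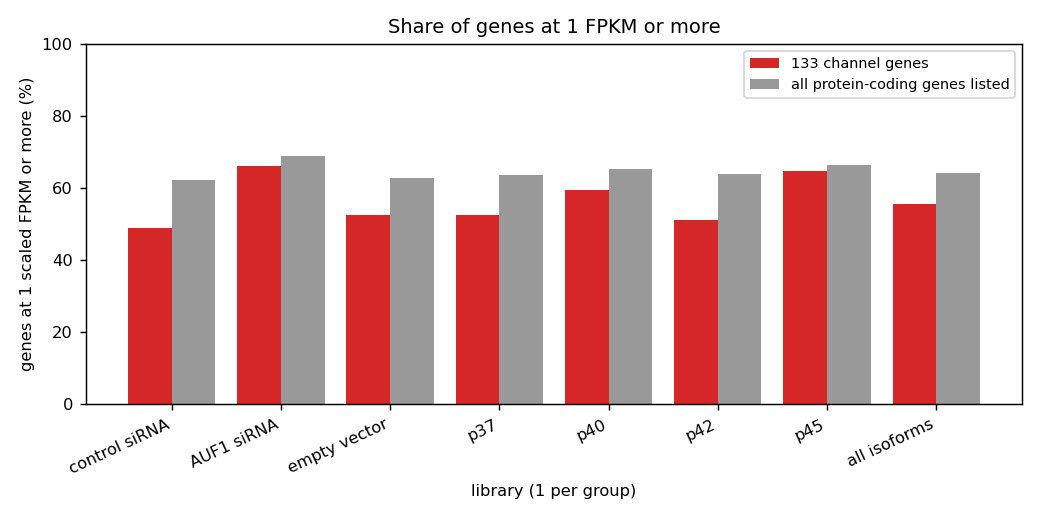
Share of genes at 1 scaled FPKM or more in each library, in percent, for the 133 channel genes (red) and for all listed protein-coding genes (grey). The channel genes range from 48.9% with the control siRNA to 66.2% with the AUF1 siRNA, and the protein-coding genes from 62.2% to 68.9%.

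Channel genes were more often higher than lower when the AUF1 siRNA library was set against its control, a comparison that asks what lower AUF1 does to the transcriptome. A gene entered the comparison when the mean of both libraries was 5 FPKM or more and both were above 0, and it was called at a 2-fold difference of FPKM + 1, which understates the fold of low genes. Of 34 channel genes that entered, 17 were called higher and 4 lower, while 10.9% and 4.99% of all 9555 genes entered were called higher and lower. Several of the 17, among them CACNA1E, KCNG2, CACNG7, KCNIP2, KCNJ12 and CACNG2, were below 5 FPKM with the control siRNA. They entered only because their AUF1 siRNA value was high, so their place in the higher count was partly set by the filter. KCNS3, among the lower genes, entered through its control siRNA value. The same filter applied to all genes. Among protein-coding genes with a pair mean of 5 to 20 FPKM, 12.1% were higher, and among those spanning 100 kb or more, 12.9% were. The median log2 ratio was 1.00 for the channel genes entered and -0.03 for all genes entered, and 29 of the 34 channel genes were above 0. For 16 of the 17 higher and 2 of the 4 lower genes, the deposited bounds of both libraries, summed over transcripts, did not overlap. These bounds cover the estimate within 1 library only. The share over all called genes is not given here, so the count says nothing particular to channel genes.

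The count held in part under other measures and another control. With length-weighted sums, 8 of 16 channel genes entered were higher and none was lower, with 5.98% of all genes higher and 2.41% lower. With coding transcripts alone, 11 of 20 were higher and none was lower, with 9.39% of all genes higher and 4.85% lower. Against the empty vector library, 12 of 33 were higher and 1 was lower, with 9.93% of all genes higher and 4.77% lower, and the median log2 ratio was 0.64. Of the 17 higher genes, 10 were also 2-fold higher against the empty vector and 9 passed both that and the length-weighted test. Both ratios share the AUF1 siRNA library, so they are not independent. The matching shares of all genes called higher are not given here. The control siRNA library was itself low for channel genes, since 4 of 25 were 2-fold lower and 1 was higher than with the empty vector, where 10.8% of all genes differed in either direction, and the median log2 ratio was -0.29.

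Summed markers of other cell types also moved in that comparison, from 80.0 to 84.5 FPKM for neurons, 27.2 to 30.3 for muscle, 9.99 to 12.2 for fibroblasts and 2.74 to 5.69 for differentiated kidney. With each FPKM weighted by transcript length, the share in transcripts assembled from the reads was 23.9% with the control siRNA and 26.1% with the AUF1 siRNA. The part of depth, of these marker genes and of assembled transcripts in the higher channel values was not tested.

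Both calcium channel pores that entered were called higher, but CACNA1E entered only through its AUF1 siRNA value, so its call was partly set by the filter. All 10 listed had a higher level with the AUF1 siRNA. The matching share of all protein-coding genes is not given here, so that count says nothing particular to these pores. CACNA1E (ENSG00000198216, hg19 chromosome 1, 181382238 to 181777219), the pore of the R-type current of neurons, had the highest ratio of any channel gene entered. It was at 14.1 FPKM with the AUF1 siRNA, 0.963 with the control siRNA, 3.50 with the empty vector and 2.72 to 4.87 FPKM with overexpression, so the AUF1 siRNA library stood above all 7 others. Its log2 ratio was 2.94 against the control siRNA and 1.74 against the empty vector, and 1.47 by the length-weighted sum. CACNA1C had a log2 ratio of 1.58 against the control siRNA but -0.67 against the empty vector. CACNA1B, the N-type pore of nerve terminals, was named after its values were seen. It was listed at 0 with both controls and at 5.69 FPKM with the AUF1 siRNA, a pair mean below the 5 FPKM needed to enter.

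Of 9 calcium auxiliary subunits that entered, 3 were higher and 1 was lower. The abundant CACNA2D3, CACNA2D1, CACNB2 and CACNB4 had log2 ratios of 0.19, 0.12, 0.05 and 0.24 and were not called. CACNG2 was at 19.3 FPKM with the AUF1 siRNA and at 4.40 to 9.39 FPKM in the other 7 libraries. Its ratios were 1.91 against the control siRNA, 1.69 against the empty vector and 2.04 by the length-weighted sum. CACNG7 had 17.5 FPKM against 2.39 with the control siRNA, a log2 ratio of 2.45, but 8.91 with the empty vector and 10.9 FPKM with p45. Its difference lay in the noncoding transcript, and coding transcripts alone gave -0.02. CACNA2D4, another alpha-2-delta gene, was called lower at -1.08, but its length-weighted ratio was 0.90 and its ratio to the empty vector was 1.25, so its direction turned.

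Among potassium auxiliary subunits 4 of 9 were higher and 1 was lower. KCNIP1 (ENSG00000182132, hg19 chromosome 5, 169780491 to 170163636) was at 46.3 FPKM with the AUF1 siRNA, 5.79 with the control siRNA, 9.87 with the empty vector and 13.9 to 26.8 FPKM with overexpression. The AUF1 siRNA library was the highest and the control siRNA library the lowest. Its log2 ratio was 2.80, with 2.74 by the length-weighted sum and 2.12 against the empty vector. Both coding transcripts contributed, as ENST00000377360 went from 2.15 to 23.3 FPKM and ENST00000411494 from 3.64 to 23.0 FPKM. KCNIP2 had 17.9 against 2.99 FPKM, a log2 ratio of 2.24, and 7.61 FPKM with the empty vector. KCNAB2 had 173.8 FPKM against 60.4 with the control siRNA and 73.1 to 103.6 FPKM in the other 6, a log2 ratio of 1.51 that rests on its retained-intron transcript. KCNAB1 had 18.2 against 7.46 FPKM, but all isoforms stood at 19.2 FPKM. KCNMB4 was lower, at 8.70 against 18.6 FPKM, and its ratio of -1.01 became -0.97 without scaling and -0.17 against the empty vector.

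Of 7 voltage-gated potassium pores that entered, 4 were called higher, KCNQ5 and KCNG2 among them, and KCNS3 was called lower. The KCNQ5 ratio of 2.59 rests on the low control siRNA library, and against the empty vector it was -0.33. KCNG2, a modifier subunit like KCNS3, had 8.15 against 1.93 FPKM and 4.16 to 5.62 FPKM in the others, with ratios of 1.64 and, against the empty vector, 0.61. KCNQ1 had a ratio of 0.77 and KCNB2, a delayed rectifier, 0.40, and neither was called. KCNS3 had -2.56 against the control siRNA and -2.62 against the empty vector, but coding transcripts alone gave 0.14.

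KCNMA1 (ENSG00000156113, hg19 chromosome 10, 78637355 to 79398353) was at 45.9 FPKM with the AUF1 siRNA, 11.3 with the control siRNA, 16.9 with the empty vector and 12.0 to 26.9 FPKM with overexpression. The AUF1 siRNA library stood above the other 7. Its log2 ratio was 1.92, with 1.58 by the length-weighted sum, 1.74 from coding transcripts and 1.39 against the empty vector. The other activated channels that entered, KCNN3, a small-conductance pore, and KCNT2, a sodium-activated pore, had 0.75 and -0.90 and were not called. KCNN3 was at 10.0 FPKM with the AUF1 siRNA, 5.55 with the control siRNA and 1.30 with the empty vector.

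KCNJ12, an inward rectifier of heart and skeletal muscle, had 9.62 FPKM with the AUF1 siRNA, 3.49 with the control siRNA, 3.62 with the empty vector and 3.74 to 6.99 FPKM with overexpression. Its log2 ratios were 1.24 against the control siRNA, 1.20 against the empty vector and 1.29 by the length-weighted sum. KCNK1, a two-pore channel of weak inward rectification, had 19.3 against 7.98 FPKM, but 16.1 with the empty vector, and 0.46 by the length-weighted sum. Its full coding transcript of 2161 nt was at 4.66 FPKM with the control siRNA and 5.80 FPKM with the AUF1 siRNA. It and KCNK9 were the 2 two-pore channels that entered, and KCNJ12 the 1 inward rectifier. KCNK9 and KCNJ12 entered only through their AUF1 siRNA values, so their calls were partly set by the filter. KCNK9 and CACNA2D2, named after their values were seen, had log2 ratios of 1.52 and 1.61. CACNA2D2 fell short of 2-fold at 0.67 by the length-weighted sum and 0.29 from coding transcripts.

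**Figure D3:**
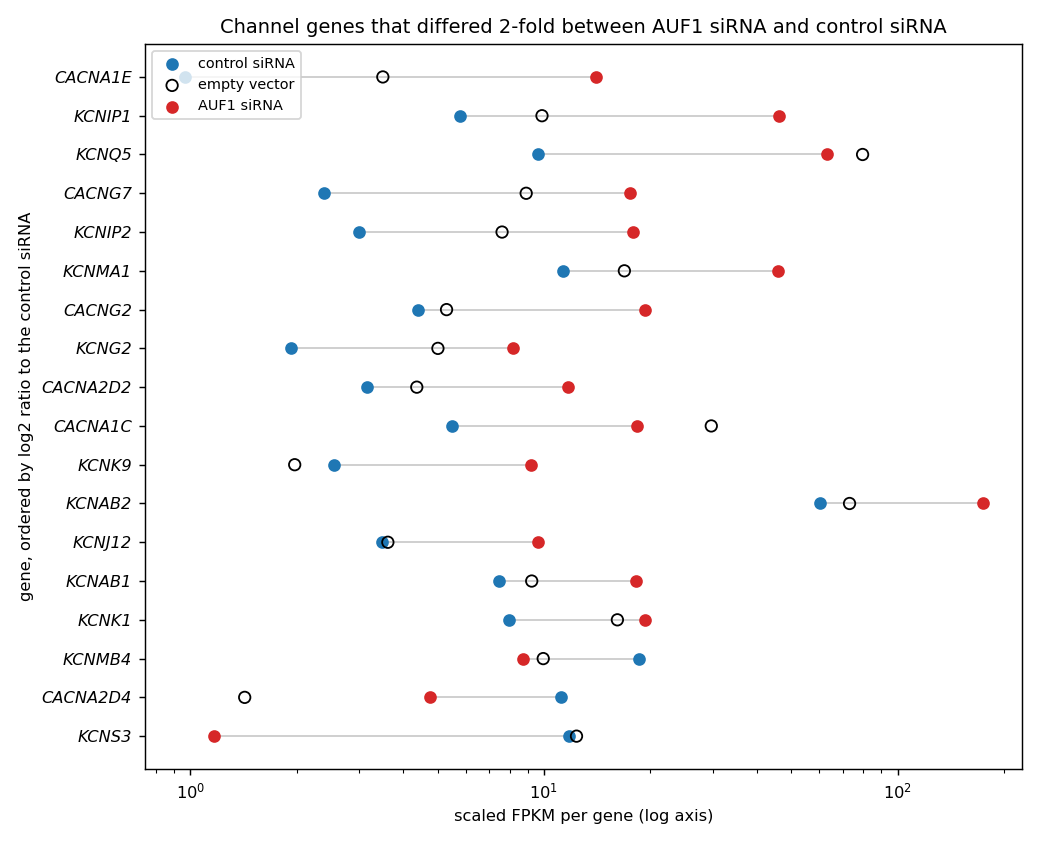
Scaled FPKM, on a log axis, of 18 channel genes that differed 2-fold between the AUF1 siRNA library (red) and the control siRNA library (blue), with the empty vector library as open circles. The empty vector lies beyond the AUF1 siRNA value for KCNQ5 and CACNA1C and below the AUF1 siRNA value for the other 13 higher genes.

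Channel genes below the level needed to enter were also mostly higher with the AUF1 siRNA. Of 99 such genes, 90 were above 0 in at least 1 of both libraries, and 76 of them had the higher level with the AUF1 siRNA and 14 with the control. Of 8531 protein-coding genes in the same position, 68.4% had the higher level with the AUF1 siRNA. The median of the 99 was 0.526 FPKM in the control, 1.33 FPKM in the AUF1 siRNA library and 0.569 FPKM with the empty vector. Over all listed genes, entered or not, 4 of 4 sodium beta subunits and 14 of 15 two-pore channels had a higher level with the AUF1 siRNA. So did 14 of 16 calcium and 12 of 16 potassium auxiliary subunits and 30 of 40 voltage-gated potassium pores. For inward rectifiers the count was 10 of 14, for activated channels 5 of 8 and for sodium pores 6 of 10. The totals include genes equal in both libraries and are small, so the groups cannot be ranked by them. The share of all protein-coding genes, entered or not, is not given here. SCN4B went from 0.910 to 5.70 FPKM, but it was at 4.45 FPKM with the empty vector.

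The AU-rich letters printed above were not more frequent in the channel genes called higher. TATTTAT was in the 3′ untranslated region of 6 of 16, or 37.5%, against 10 of 17, or 58.8%, of those that entered and were not higher, and 37.8% of those that did not enter. CACNA1E and KCNIP1, which had the highest ratios, held none. The shorter letters ATTTA occurred 13 times in the 9250 nt region of CACNA1E and 0 times in that of KCNIP1. The counts are small, and nothing about binding by AUF1 follows from them.

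Promoters were compared because the KCNQ5 ratio and part of the KCNIP1 ratio rest on a transcript that starts at or near a listed promoter. No listed promoter start lay within 300 nt of the start of the other KCNIP1 transcript, ENST00000411494. RefSeq promoters of GRCh38.p14, from 250 bases before to 50 after a start, were matched for 95 channel genes, which had 147 promoters. GGGCGG, the GC box, was searched on both strands and was in 52.4% of these promoters, against 57.6% of 20421 promoters of protein-coding genes. The median ratio of observed to expected CpG was 0.588 for promoters of the channel genes and 0.747 for those of protein-coding genes. It was 0.458 over 22 promoters of 11 genes called higher and 0.607 over 26 promoters of 11 that entered and were not higher. Promoters of the same gene are not independent, and KCNAB1 and KCNAB2 count with several each among the higher genes. TATAAA was in 7.48% and 8.96% of the promoters of channel and protein-coding genes, TGACGTCA in 0.680% and 2.26%, and TTCAGCACC, part of the element bound by the repressor REST, in 2.04% and 0.343%, which is 3 of the 147 promoters. No promoter of a called channel gene held the last of these. Below are a promoter of KCNQ5 at chr6:72621814-72622113 and a promoter of KCNIP1 at chr5:170353237-170353536. The KCNQ5 promoter start lies 42 nt from the start of ENST00000370392 and 221 nt from that of ENST00000414165. The KCNIP1 promoter start is that of ENST00000377360. Both are on the plus strand of GRCh38.p14, with GGGCGG or its reverse complement in capitals.
KCNQ5: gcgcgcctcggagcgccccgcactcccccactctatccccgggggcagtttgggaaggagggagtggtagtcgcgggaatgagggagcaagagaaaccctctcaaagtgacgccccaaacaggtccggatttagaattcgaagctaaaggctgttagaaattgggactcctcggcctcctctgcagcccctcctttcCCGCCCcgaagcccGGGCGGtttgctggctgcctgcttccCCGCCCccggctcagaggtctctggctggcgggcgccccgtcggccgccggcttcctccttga
KCNIP1: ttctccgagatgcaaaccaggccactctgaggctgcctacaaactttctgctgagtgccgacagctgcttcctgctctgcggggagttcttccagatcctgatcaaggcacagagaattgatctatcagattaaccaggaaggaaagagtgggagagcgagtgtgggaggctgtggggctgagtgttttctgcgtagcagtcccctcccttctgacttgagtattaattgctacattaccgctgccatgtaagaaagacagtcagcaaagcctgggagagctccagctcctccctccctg
The printed KCNQ5 promoter held 3 GC boxes, with a CpG ratio of 0.745, and the printed KCNIP1 promoter held none, with 0.285. Another listed KCNIP1 promoter, at chr5:170503770-170504069, held 6 GC boxes, with a CpG ratio of 0.674, and is not shown. The 2 printed promoters thus differ in base composition, but the 2 genes cannot be contrasted by them, and nothing about the siRNA values follows. ENST00000370392 was at 63.0 FPKM with the AUF1 siRNA and 79.6 with the empty vector, and only the control siRNA library listed it at 0. ENST00000377360 was at 23.3, 6.04 and 2.15 FPKM in the same order. Leading transcripts of other called genes, such as KCNAB2, KCNIP2 and KCNS3, also start within 300 nt of a listed promoter start and are not shown.

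Few channel genes differed 2-fold between the overexpression libraries and the empty vector library, which all 5 comparisons share. In p37, 1 of 27 channel genes was higher and 3 were lower, with 8.26% of all genes called in either direction. In p40 the counts were 2 and 2 of 28, with 9.46% of all genes called. In p42 none was higher and 3 of 29 were lower, with 8.16%. In p45 2 were higher and 1 lower of 30, with 10.7%, and with all isoforms 2 of 28 were higher and none lower, with 8.67%. With at most 4 genes called in a comparison, these counts are too few to set apart from the shares of all genes. Median log2 ratios of the channel genes entered were -0.00, 0.09, 0.14, 0.31 and 0.17 in the same order, and those of all genes were -0.02, -0.01, -0.01, -0.02 and -0.02.

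The higher genes included KCNIP1, KCNIP2 and CACNA2D4. KCNIP1 had log2 ratios of 1.36 with p40 and 1.34 with p45, from 9.87 FPKM with the empty vector to 26.8 and 26.5 FPKM, and 2.03 and 2.02 against the control siRNA. KCNIP1 was above both controls in the AUF1 siRNA library and in all 5 overexpression libraries, which stood at 13.9 to 26.8 FPKM. By the length-weighted sum the p40 ratio to the empty vector was 0.93, short of 2-fold. KCNIP2 had 1.09 with all isoforms and 0.82 by the length-weighted sum, and CACNA2D4 had 2.07 with p37, which became -0.25 against the control siRNA.

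The lower genes included CACNA1C, CACNG7 and KCNS3. CACNA1C had -1.82, -1.53 and -1.29 with p37, p40 and p45, and these became 0.43, 0.72 and 0.95 against the control siRNA. Its short transcript was at 23.6 FPKM with the empty vector and listed at 0 with the control siRNA and with these 3 isoforms. CACNG7 had -1.35, -1.67 and -1.16 with p37, p40 and p42, and 0.20, -0.12 and 0.39 against the control siRNA. KCNS3 had -3.04 with p42 and -2.97 against the control siRNA, but -1.41 by the length-weighted sum.

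**Figure D4:**
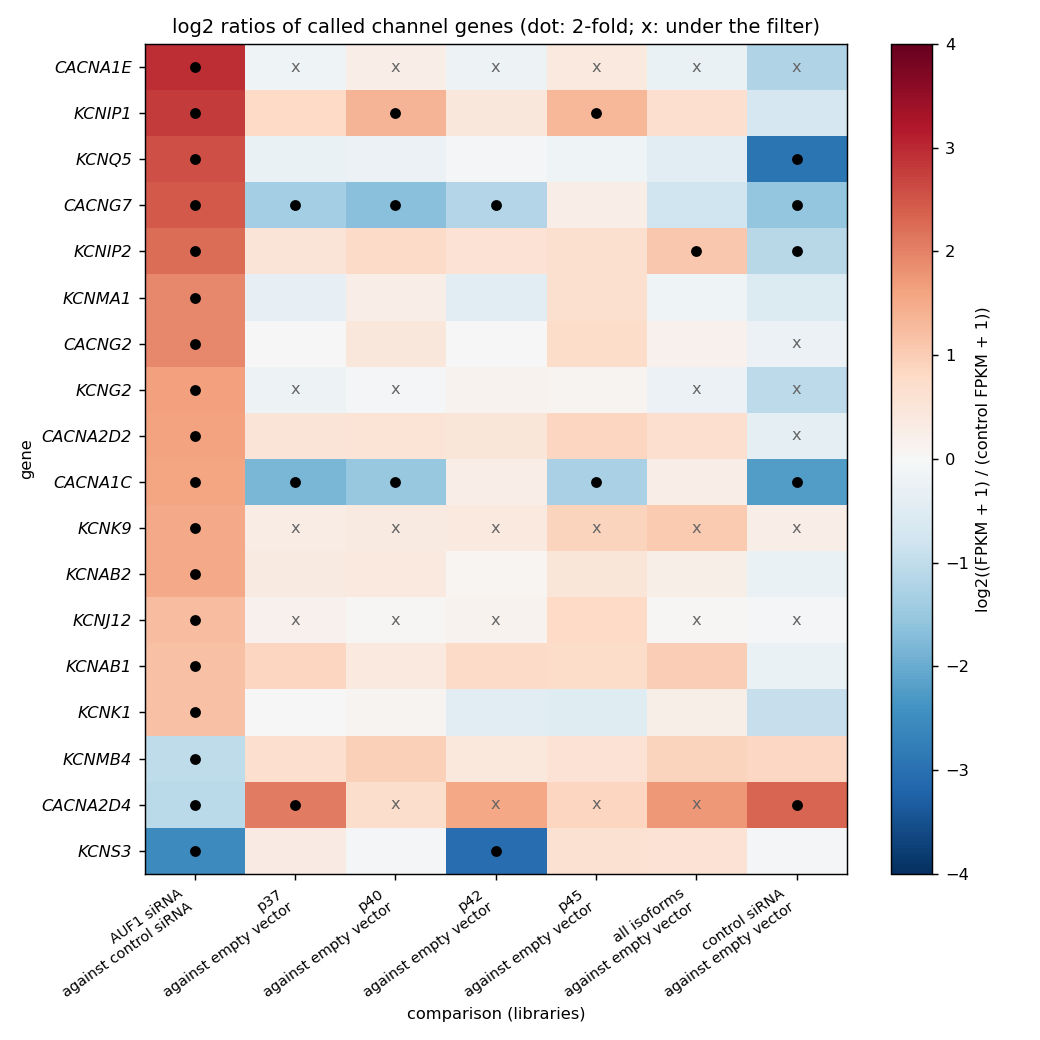
The log2 ratio of FPKM + 1 for 18 channel genes called in a comparison (rows) in the 6 comparisons and between both controls (columns), from blue for lower to red for higher. Dots mark ratios past 2-fold and crosses mark genes below the filter. The AUF1 siRNA column holds 15 higher genes, and the last column shows KCNQ5 and CACNA1C far lower with the control siRNA than with the empty vector.

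Genes that act with channels were followed as a list of 47 regulators, anchors and accessory proteins, all of which were listed. With the AUF1 siRNA 1 of 16 that entered was higher and none was lower, against 10.9% and 4.99% of all genes. That gene was UNC80, a subunit of the sodium leak channel complex, at 8.21 FPKM against 2.05 with the control siRNA and 2.35 with the empty vector, for a log2 ratio of 1.60, which fell short of 2-fold at 0.53 by the length-weighted sum. ANK3, the ankyrin that anchors sodium and KCNQ channels, was at 41.7 FPKM with p37, against 20.1 with the empty vector and 35.4 with the control siRNA, and its log2 ratio of 1.02 to the empty vector was 0.29 by the length-weighted sum. NEDD4L, a ubiquitin ligase that removes channels from the membrane, had log2 ratios to the empty vector of 1.26, 1.53 and 1.71 with p40, p45 and all isoforms, and of 0.34, 0.60 and 0.78 to the control siRNA. DPP6, an accessory protein of A-type potassium channels, had 1.14 with p45 and 0.56 against the control siRNA. REST, a repressor of neuronal genes, had -1.18, -1.41 and -1.19 with p42, p45 and all isoforms, and only -0.21, -0.43 and -0.21 against the control siRNA, since it was at 9.99 FPKM with the empty vector and 4.57 FPKM with the control siRNA. By the length-weighted sum they were -0.61, -0.89 and -0.81, short of 2-fold.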

How the data were processed

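Per the labels' protocols, Trizol RNA was amplified isothermally with a NuGEN Ovation kit that leaves out ribosomal RNA and sequenced on a Genome Analyzer II. The authors deposited 1 FPKM value per transcript and library. Per the submitters' processing notes, TopHat2 2.0.6, Cufflinks 2.0.2, Cuffdiff and hg19 were used. No source used here names the annotation release. The deposited coverage column, divided by FPKM, gave relative depth. Deposited bounds were summed per gene, and every status was kept except a failed one, which no channel transcript had. LOWDATA transcripts held 16.5% to 29.5% of channel FPKM per library.

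Transcripts of 300 nt or more were placed in GENCODE 29 genes, 646 of 721 channel transcripts by identifier and 75 by the gene, cluster or position given in the tables. FPKM was summed per gene and divided by median-of-ratios factors, 0.943 to 1.07, from 11547 genes that reached 1 FPKM in every library. Ratios are log2(FPKM + 1). Python 3.11.15, pandas 2.3.3 and numpy 2.4.6 were used, and the code was tested on simulated data. The channel genes, the 47 regulators, the markers and the motifs were chosen with earlier results of these data known. Genes named are the 20 of highest mean, called genes (8 highest and 8 lowest where over 16 were called), the 5 of widest range, the top of each group and called regulators; SCN9A, CACNA1B, KCNB2, KCNN3, KCNT2, KCNK9, CACNA2D2 and the genes around 1 FPKM or at 0 were named after their values were seen. Alternatives changed the pseudocount to 0.25, the filter, the scaling, the length weighting, the transcript class, the control library and the matching. NEFL and RBFOX3 were not analysed here. Values of some channel genes are not reported here, though the counts include them.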

Additional observations from a re-analysis of the deposited data

How the results depend on the processing

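The counts of channel genes called in each comparison changed by over 1.5 times under some alternatives. Without a filter on low values, 47 were called with the AUF1 siRNA (40 higher and 7 lower of 124, against 14.4% and 5.33% of all genes), and 10, 10, 9, 17 and 11 in the 5 overexpression comparisons (p37, p40, p42, p45, then the mixture), of 121 to 124, against 11.5%, 13.1%, 11.4%, 14.8% and 12.7% of all genes. Length-weighted sums gave 8 of 16 with the AUF1 siRNA, where 8.39% of all genes were called. In the order above they gave 0 of 11, 0 of 11, 0 of 12, 1 of 14 and 0 of 11. There, 3.85%, 4.64%, 4.17%, 5.38% and 4.02% of all genes were called, so these 5 counts are too few to set apart from the shares. Coding transcripts alone gave 11 of 20 with the AUF1 siRNA, 2 of 14 with p37 and 1 of 18 with p42. The shares of all genes called were 14.2%, 8.52% and 8.4%. The other control library gave 13 of 33 with the AUF1 siRNA, 7 of 26 for p42, 8 of 30 for p45 and 7 of 27 for the mixture, where 14.7%, 10.1%, 11.5% and 11.5% of all genes were called. Matching by transcript identifier alone, an alternative chosen after seeing the data, gave 1 of 26 with all isoforms, where 9.58% of all genes were called.

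For named genes, 189 of the values under alternatives kept their direction and side of 2-fold, 25 fell short of 2-fold and 18 turned. Of the 189, 29 came from dropping the filter, which leaves a ratio unchanged. Another 29 came from the pseudocount of 0.25, which can only enlarge a ratio, so these outcomes were fixed in advance. Of 29 values each, 15 were kept by the length-weighted sum, 17 with coding transcripts and 14 with the other control. In the AUF1 siRNA comparison, CACNA2D4 turned to 0.90 by length-weighted sum, and coding transcripts turned KCNS3 to 0.14, CACNA2D4 to 0.62 and CACNG7 to -0.022. The other control turned KCNQ5 to -0.33, CACNA2D4 to 1.25 and CACNA1C to -0.67. In the p37, p40 and p42 comparisons, coding transcripts turned CACNG7 to 0.076, 0.18 and 0.93. The other control turned CACNA2D4 to -0.25 and CACNA1C to 0.43 with p37, CACNA1C to 0.72 with p40 and 0.95 with p45, and CACNG7 to 0.20 with p37 and 0.39 with p42. Length-weighted sums turned CACNA1C to 0.19 with p40 and 0.43 with p45. The cause was not tested.

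The number of channel genes averaging 1 FPKM or more, 79, was 58 to 79 under the other measures, scalings and matchings and 74 to 82 when each library was left out in turn, with the lowest value without the AUF1 siRNA library. With FPKM as deposited, the median log2 ratio of all genes was -0.13 rather than -0.02 with p45, and 479 were higher and 571 lower rather than 560 and 443. No paired analysis was possible because each group holds 1 library. Depth in reads is unknown, so values near 0 have no counting interval.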
